A study of Mus musculus with 18 samples.

Results

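The 9 genes described here are Atf4, Atf5, Ddit3 (CHOP), Trib3, Chac1, Asns, Sesn2, Ppp1r15a (GADD34) and Xbp1, the core transcripts of the integrated stress response in a mouse heart after myocardial infarction. They were taken by symbol from a table of 24419 genes, and 9 of 9 were present. All 18 mice were C57BL/6, 8 weeks old and, by the study's methods, male, were anaesthetised with pentobarbital (50 mg/kg), and each gave 1 library of polyA RNA. In 15 mice, acute myocardial infarction (AMI) was made by tying off the coronary artery that feeds the front of the left ventricle, the proximal LAD, and infarcted left ventricle was taken after 10 min, 1 h, 6 h, 24 h or 72 h (3 mice each). The other 3 mice were the control group of the labels, called sham in the study, and supply the reference for each time point. No reperfusion, transgene or deleted gene is named for any group.

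Cells answer a lack of amino acids, heme or oxygen, viral RNA or unfolded protein by phosphorylating the translation factor eIF2, which slows protein synthesis in general while the Atf4 message is translated better. ATF4 is a bZIP transcription factor that then switches on amino acid synthesis and transport, further bZIP factors such as CHOP, and GADD34, which guides a phosphatase back to eIF2 and ends the response. Xbp1 belongs to a parallel branch: the endoplasmic reticulum (ER) sensor IRE1 splices its mRNA, and the spliced form drives chaperone and secretory genes. In the heart both branches are known from ischaemia and pressure overload. ATF4 is set mainly by translation and XBP1 by splicing, neither of which is read by gene-level mRNA, so the values below are transcript levels and not activity.

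Levels were FPKM, fragments relative to the length of the transcript and the number of mapped reads, a scale on which genes can be compared with each other. A log2 fold change is the difference in mean log2(FPKM + 1) between 3 mice and 3 mice, so that the change of a scarce transcript such as Sesn2 comes out too small. A gene is called when its adjusted p, from limma's two-sided test adjusted by the Benjamini-Hochberg method across every tested gene, is under 0.05. A gene entered the test if any mouse reached an FPKM of 1, which 13333 genes did, the 9 described here among them, and 8 of the 9 were at or above that level in each of the 18 mice. Sesn2 passed only through mice of the later time points, so that its call is tied to its entry into the test.

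The tissue carried the 8 cardiomyocyte markers looked for (Myh6, Tnnt2 and others), whose summed FPKM ran from 55800 to 59300 in control, 45900 to 55800 at 6 h, 34600 to 44500 at 24 h and 20400 to 25400 at 72 h. The sum of 7 macrophage markers ran from 196 to 225 in control, from 506 to 711 at 24 h and from 3510 to 4630 at 72 h. The sum of 7 fibroblast markers ran from 231 to 260 in control, from 288 to 407 at 24 h and from 3660 to 4790 at 72 h. Neutrophil markers (6 of 7 were in the table) summed to at most 4.92 in control, to between 115 and 989 at 6 h and between 42.6 and 955 at 24 h, while Mpo, a defining gene of their granules, was listed at 0 in control and at 6 h. The part of this change in cell makeup in the results below was not tested. In bulk tissue, fewer cells of a type and less RNA per cell cannot be told apart. The third 24 h mouse stood apart: it was the highest of its group for 8 of the 9 genes, against 44.5% of all tested genes, and it had the highest neutrophil sum (955, against 208 and 42.6) and the lowest cardiomyocyte sum (34611, against 44514 and 44190) of the 24 h mice. Results at 24 h are therefore also given without it. The deposited table gives no read counts. Relative depth, read from the ratios of the lowest FPKM between mice, lay between 0.813 and 1.32 times that of the first control mouse.

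The start regions of the genes were searched because the 4 matches below show which of the members carry the textbook letters of an ATF4 or CREB family element close to the start. The RefSeq promoter windows (GRCm38.p6, 250 bases before to 50 after the start) matched 9 of 9 genes. The letters TGATGNAA, those of the composite C/EBP and ATF element, were searched on both strands and stood in 3 of the 9 windows, against 3.97% of 32851 windows of the same length. TGACGTCA, the cAMP response element, stood in 1 of the 9, against 1.79%. The longer ER stress element, CCAAT and CCACG held 9 bases apart, stood in 0 of the 9, against 0.119%. Each of the next 4 runs is 30 bases on the strand of its gene, 5′ to 3′, with the match in capitals.
Chac1: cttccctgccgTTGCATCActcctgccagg
Trib3: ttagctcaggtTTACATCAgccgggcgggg
Asns: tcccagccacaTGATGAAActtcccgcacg
Ppp1r15a: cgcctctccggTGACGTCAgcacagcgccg
The Chac1 run lies at chr2:119351038-119351067 on the plus strand, and its match, in reverse orientation, begins at base -193 from the start. The Trib3 run lies at chr2:152344028-152344057 on the minus strand, with a reverse match from base 15 after the start. For Asns the run is chr6:7693214-7693243 on the minus strand, with the match at base -23. The Ppp1r15a run is chr7:45526262-45526291, also on the minus strand, with the match at base -12. Bases are counted from the RefSeq start, which for Chac1, Trib3 and Asns is not the start of the GENCODE span given for the gene below. By those spans the Trib3 match lies before the gene and the Asns match inside it. A match is a description of letters and not of binding. The genes that share an element did not share a time course: of the 3 with the composite element, Asns rose from 6 h on, Chac1 fell at 72 h and Trib3 was not called against control at any time.

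Within the first hour only Ppp1r15a was called, at 1 h. Sesn2 at 10 min lay above all control mice (0.478 to 0.637 FPKM against 0.324 to 0.408) and was not called. From 6 h on, Atf4, Asns, Ppp1r15a and Xbp1 were called higher than control at 6 h, 24 h and 72 h. Sesn2 was called at the same times, but it lay under an FPKM of 1 in each control, 10 min and 1 h mouse and entered the test through the late mice alone, and its 24 h call was lost with no filter. In contrast, Ddit3, Chac1 and Trib3, the genes usually read as the pro-death output, were called higher at none of the 5 times. At 72 h Ddit3 and Chac1 were lower than in control.

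**Figure D1:**
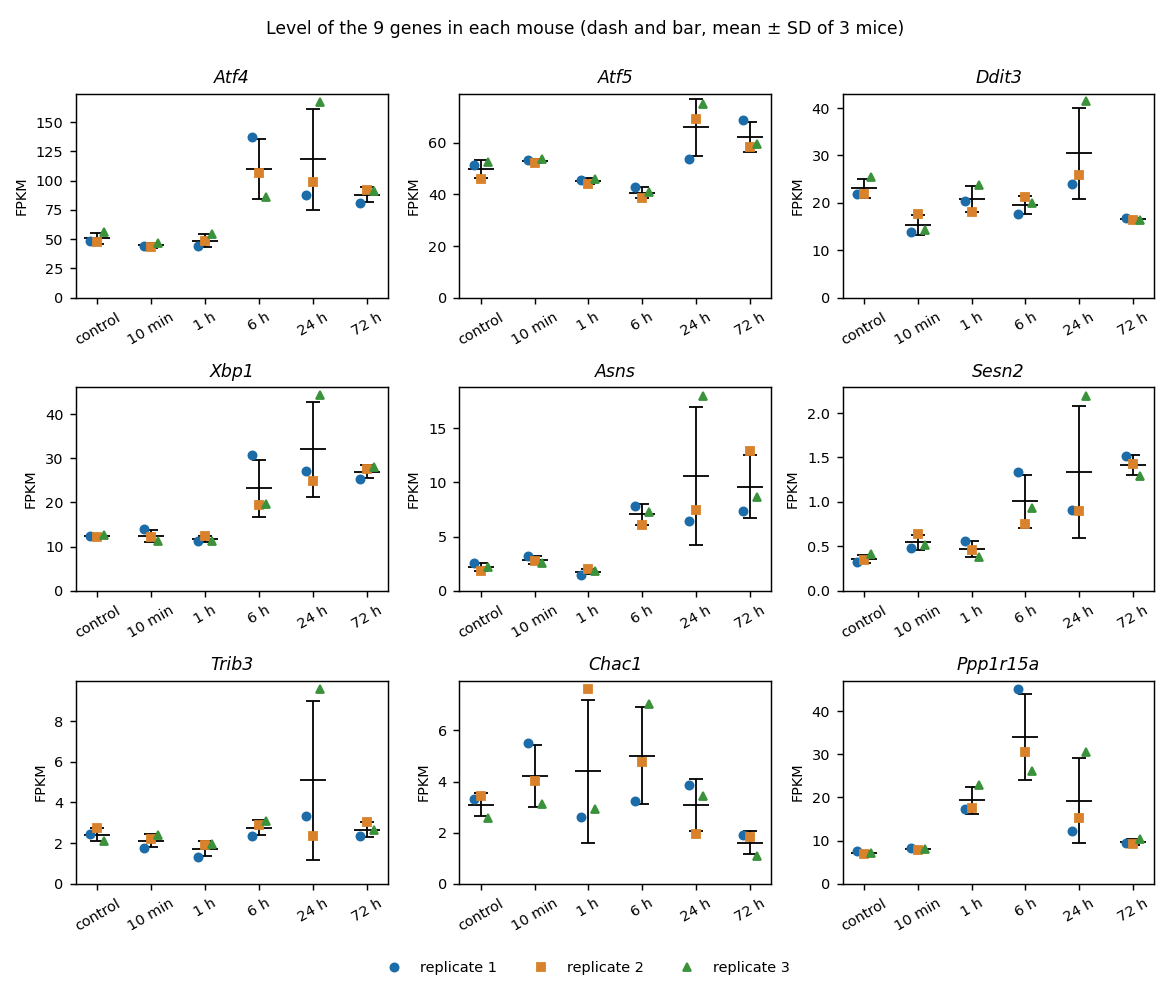
FPKM of the 9 genes (each vertical axis from 0) in each of 18 mice, by group. Symbols are replicates, the dash and bar are the mean ± SD of 3 mice. Atf4, Asns, Sesn2, Xbp1 lie above all control mice from 6 h on, and Ppp1r15a from 10 min on. Sesn2 also does at 10 min but not at 1 h. The third 24 h mouse (triangle) is the highest of its group in all panels but Chac1.

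At 10 min, 0 of 9 genes were called higher and 0 lower by limma, where 0.248% and 0.0978% of all tested genes were. Before adjustment, 4 of 9 had a p under 0.05. At 1 h, 1 of 9 was called higher and 0 lower, against 0.669% and 0.0526% of all genes, and 2 of 9 had an unadjusted p under 0.05. At 6 h, 5 of 9 were called higher and 1 (Atf5) lower, against 11.6% and 16.8%, and the median log2 fold change was 0.55 over the 9 genes and -0.08 over all genes. At 24 h, 5 of 9 were called higher and 0 lower, against 26.2% and 11.4%, with a median of 0.74 beside 0.13 over all genes and 6 of 9 with an unadjusted p under 0.05. At 72 h, 6 of 9 were called higher and 2 lower, against 53.1% and 24.2%, with medians of 0.38 and 0.29. The share of the members called higher at 72 h is thus near that of all genes. Sesn2 is among the genes called higher at 6 h, 24 h and 72 h, and its own change is the median of the 9 at 6 h and at 24 h. Leaving Sesn2 out, 4 of the 8 other genes were called higher at both 6 h and 24 h, and 5 of the 8 were at 72 h. For 72 h it is the size and order of single genes, not their number, that is described.

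**Figure D2:**
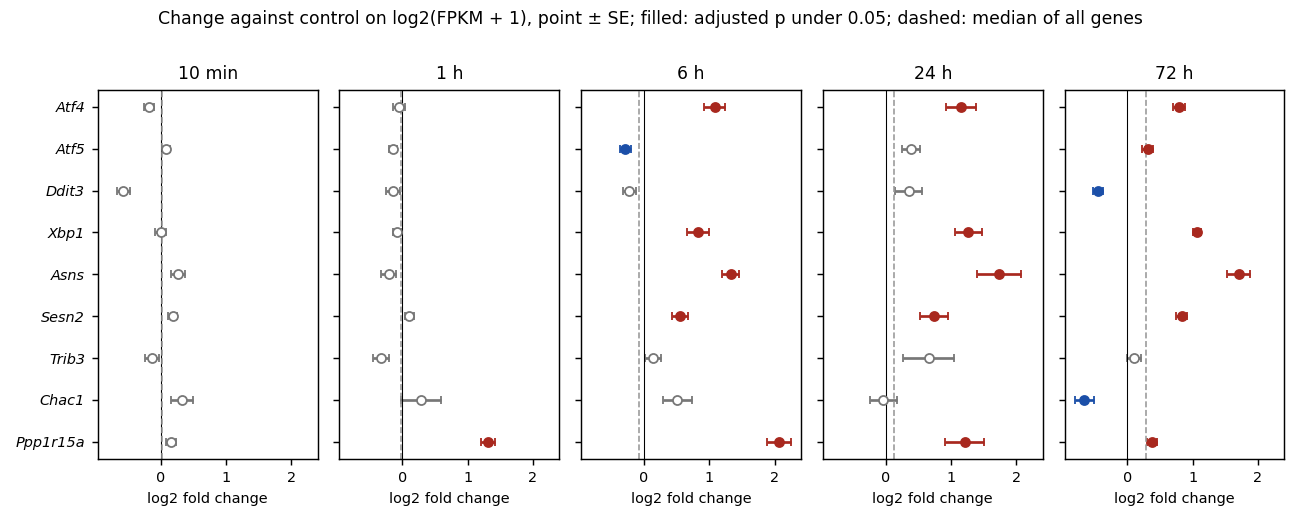
Log2 fold change on log2(FPKM + 1) against control at 5 times (point ± SE, 3 against 3 mice). Filled points have an adjusted p under 0.05 (red higher, blue lower), and the dashed line is the median of all genes tested, 0.29 at 72 h, close to the points of Atf5 and Ppp1r15a (0.31 and 0.38), and under quantile normalization Ppp1r15a and Trib3 lie below control at 72 h (-0.04 and -0.46).

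All genes shifted with the scaling, which bears on small changes. The median over all genes was 0.13 at 24 h and 0.29 at 72 h with FPKM as deposited, 0.02 and 0.04 after median-of-ratios scaling, and -0.06 and -0.12 after quantile normalization. The number of genes called higher and lower moved in the same way, from 7081 and 3226 at 72 h to 5243 and 4752 with median-of-ratios scaling and 4278 and 5794 with quantile normalization. At 24 h it moved from 3496 and 1516 to 2535 and 2317 and to 2118 and 2736. At 6 h it was 1543 and 2233, and 1977 and 1513 with median-of-ratios scaling. At 10 min it was 33 and 13, against 33 and 25 and 35 and 24. Relative to the median of all genes at 72 h, the difference was 1.41 for Asns, 0.78 for Xbp1, 0.54 for Sesn2, 0.50 for Atf4, 0.09 for Ppp1r15a, 0.02 for Atf5, -0.19 for Trib3, -0.74 for Ddit3 and -0.95 for Chac1.

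Atf4 (chr15:80255184-80257541, plus strand, mm10 and GENCODE M21) encodes the central factor of the response and was, with Atf5, the most abundant of the 9 in control, with 48.3, 47.4 and 55.8 FPKM in the 3 control mice. It measured 44.3, 42.9 and 46.4 at 10 min and 43.8, 48.0 and 54.3 at 1 h. It then reached 137, 106 and 86.1 at 6 h, 87.6, 99.1 and 168 in the 24 h mice and 80.7, 92.3 and 90.9 in the 72 h mice. Each of the 9 late mice lay above each of the 9 early and control mice, and the 6 h, 24 h and 72 h groups overlapped each other. The log2 fold change was 1.08 ± 0.16 (SE) at 6 h (adjusted p = 0.00443), 1.15 ± 0.23 at 24 h (adjusted p = 0.0122) and 0.79 ± 0.09 at 72 h (adjusted p = 3.87e-05), which is a 2.17-, 2.34- and 1.74-fold mean FPKM. Without the third 24 h mouse, the 24 h value was 0.87 (adjusted p = 0.00146). It was still called at 24 h in 4 of the 6 fits that left out 1 mouse, and the adjusted p was 0.0538 without the first control mouse and 0.0517 without the second.

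Atf5 (chr7:44812256-44816658, minus strand), a close relative of Atf4 that is also translated under stress and acts in the mitochondrial stress response, moved little and along another course. Control mice had 51.3, 46.0 and 52.5 FPKM, 10 min mice 53.3, 52.3 and 53.8, and 1 h mice 45.5, 43.9 and 46.1. At 6 h it was at 42.8, 38.5 and 40.9, below each control mouse, at 24 h at 53.8, 69.2 and 75.0, and at 72 h at 68.8, 58.6 and 59.4. The 24 h and 72 h mice lay above all control mice, the reverse of 6 h. The change was -0.29 ± 0.08 at 6 h (adjusted p = 0.0383), 0.38 ± 0.13 at 24 h (adjusted p = 0.059) and 0.31 ± 0.08 at 72 h (adjusted p = 0.00877). The 6 h call held in 1 of the 6 fits without 1 mouse (that without the first 6 h mouse), and the 72 h value fell to 0.01 with median-of-ratios scaling (adjusted p = 0.96) and 0.14 with quantile normalization (adjusted p = 0.193). Of its exon bases, 82 (4.1%) overlap Nup62 and Il4i1 on the other strand, and whether the counting used strand is not given in the sources used here.

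Ddit3 (chr10:127290774-127296288, plus strand) encodes CHOP, a bZIP factor downstream of ATF4 that is best known for its part in ER-stress-induced cell death. Control mice had 21.8, 22.0 and 25.4 FPKM. At 10 min it was at 13.8, 17.6 and 14.3, below each control mouse, with a change of -0.57 ± 0.10 that missed the threshold (adjusted p = 0.0787, unadjusted p = 0.00068). At 1 h it was at 20.5, 18.1 and 23.8, which overlapped control, and at 6 h at 17.6, 21.2 and 19.9, just under the lowest control mouse and not called (-0.23 ± 0.10, adjusted p = 0.134). At 24 h it was at 24.0, 25.9 and 41.5, so that the mean of 30.5 rested on the third mouse, and the change of 0.35 ± 0.20 was not called (adjusted p = 0.201, and 0.11 with an adjusted p of 0.389 without that mouse). At 72 h it was at 16.8, 16.4 and 16.4, below all control mice and in the tightest group of its time course, with a change of -0.45 ± 0.08 (adjusted p = 0.000564). The 72 h call held in 6 of 6 fits without 1 mouse and in 9 of 9 other settings. The annotation holds a second gene ID of the same symbol, whose 105 exon bases lie inside the first, and 68 bases (4.0%) overlap Mars on the other strand, so reads of these stretches could be assigned to either.

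Ppp1r15a (chr7:45522916-45526268, minus strand), the inducible GADD34 subunit that returns phosphatase 1 to eIF2, was the earliest to be called and the only member called at 1 h. It was at 7.56, 6.85 and 7.04 FPKM in control, 8.28, 7.91 and 8.08 at 10 min, 17.4, 17.6 and 22.9 at 1 h, and 45.2, 30.5 and 26.1 at 6 h. It came down to 12.2, 15.1 and 30.5 at 24 h and 9.38, 9.11 and 10.3 at 72 h. The order of the means was control, 10 min, 72 h, 24 h, 1 h and 6 h, and of these neighbours only 24 h and 1 h overlapped. Its change was 1.31 ± 0.11 at 1 h (adjusted p = 0.00117), 2.06 ± 0.18 at 6 h (adjusted p = 0.000773), 1.21 ± 0.30 at 24 h (adjusted p = 0.0212) and 0.38 ± 0.08 at 72 h (adjusted p = 0.0018), a 2.70-fold level at 1 h and a 4.75-fold level at 6 h. At 24 h the value was 0.84 without the third mouse (adjusted p = 0.00244), and the call was lost without any one of the control mice (highest adjusted p 0.0728). At 72 h it was 0.10 with median-of-ratios scaling (adjusted p = 0.251), turned to -0.04 with quantile normalization (adjusted p = 0.671), and was not called with all 18 mice in one fit (adjusted p = 0.164). The constitutive partner Ppp1r15b, which does the same work in unstressed cells, was not called at 1 h (-0.03, adjusted p = 0.929) and was higher at 6 h, 24 h and 72 h by 0.54, 0.66 and 0.84 (adjusted p = 0.0232, 0.0312 and 5.9e-05).

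Asns (chr6:7675169-7693254, minus strand), which makes asparagine and is a classic ATF4 target, had the largest fold change of the 9 at 24 h and 72 h. It was at 2.60, 1.85 and 2.16 FPKM in control, 3.23, 2.72 and 2.57 at 10 min and 1.49, 1.98 and 1.83 at 1 h. It then measured 7.85, 6.03 and 7.24 at 6 h, 6.47, 7.42 and 18.0 in the 24 h mice and 7.34, 12.9 and 8.65 in the 72 h mice. None of these 9 late mice overlapped the earlier groups, and the late groups overlapped each other. The change was 1.33 ± 0.13 at 6 h (adjusted p = 0.0011), 1.73 ± 0.34 at 24 h (adjusted p = 0.0113) and 1.70 ± 0.18 at 72 h (adjusted p = 3.29e-05), or 3.20-, 4.82- and 4.37-fold in mean FPKM. Without the third 24 h mouse it was 1.31 (adjusted p = 0.000856), and Asns kept its call in each fit without 1 mouse at 6 h, 24 h and 72 h. The distantly related Asnsd1 was lower at 72 h (-0.38).

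Sesn2 (chr4:132492032-132510501, minus strand), a leucine sensor that restrains the growth kinase complex mTORC1, was the least abundant of the 9. It stood at 0.324, 0.343 and 0.408 FPKM in control, 0.478, 0.637 and 0.514 at 10 min, and 0.561, 0.463 and 0.377 at 1 h. It was at 1.33, 0.749 and 0.937 at 6 h, 0.913, 0.902 and 2.20 in the 24 h mice and 1.52, 1.43 and 1.29 in the 72 h mice. The 9 late mice lay above the 9 others, and 72 h, the group with the highest mean, was also the one with the smallest relative spread among the late groups. The change was 0.55 ± 0.12 at 6 h (adjusted p = 0.0148), 0.74 ± 0.21 at 24 h (adjusted p = 0.031) and 0.83 ± 0.09 at 72 h (adjusted p = 2.87e-05), and the mean FPKM was 3.94-fold that of control at 72 h. It kept its call in 4 of 6 fits without 1 mouse at 6 h (highest adjusted p 0.0595, without the first control mouse) and 3 of 6 at 24 h (highest 0.0973, again without that mouse; it was lost without each control mouse). The 24 h call was also lost with no filter on low values (adjusted p = 0.0506) and with quantile normalization (0.51, adjusted p = 0.0626), and without the third 24 h mouse the value was 0.49 (adjusted p = 0.00803). Its relative Sesn1 was far more abundant in control, at 74.2 ± 7.28 FPKM (SD, n = 3), and took the other direction, with -0.73 at 72 h (adjusted p = 7.19e-05), while Sesn3 was higher by 0.89 (adjusted p = 9.96e-05).

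Trib3 (chr2:152337422-152344032, minus strand), a pseudokinase induced by ATF4 and CHOP that dampens both, was not called against control at any time. It was at 2.43, 2.74 and 2.09 FPKM in control, 1.76, 2.23 and 2.40 at 10 min, 1.32, 1.92 and 1.94 at 1 h and 2.35, 2.87 and 3.06 at 6 h. It measured 3.33, 2.37 and 9.58 at 24 h and 2.33, 3.05 and 2.62 at 72 h. Every pair of neighbours in the order of group means overlapped, and the mean of 5.09 ± 3.91 (SD, n = 3) at 24 h came from 1 mouse. The change at 24 h was 0.65 ± 0.39 (adjusted p = 0.217), and 0.17 without the third mouse (adjusted p = 0.402). At 72 h it was 0.10 ± 0.11 (adjusted p = 0.415), and it turned to -0.12 with median-of-ratios scaling (adjusted p = 0.316) and to -0.46 with quantile normalization (adjusted p = 0.00545). Trib1, another member of the family, was higher at 6 h, 24 h and 72 h by 1.07, 0.86 and 0.57 (adjusted p = 0.0209, 0.0364 and 0.000625), and Trib2 was lower at 72 h (-0.57, adjusted p = 0.000537).

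Chac1 (chr2:119351229-119354381, plus strand) breaks down glutathione and is induced through ATF4 and CHOP. It was at 3.31, 3.42 and 2.57 FPKM in control, 5.53, 4.02 and 3.13 at 10 min, 2.63, 7.63 and 2.93 at 1 h, and 3.23, 4.78 and 7.04 at 6 h. The early groups spread widely and overlapped control. It was at 3.86, 1.94 and 3.44 at 24 h, and at 1.92, 1.83 and 1.08 at 72 h, below each mouse of each other group. The change was 0.51 ± 0.23 at 6 h (adjusted p = 0.127), -0.03 ± 0.20 at 24 h (adjusted p = 0.903) and -0.66 ± 0.15 at 72 h (adjusted p = 0.00315), a level of 0.519 times control. The 72 h call was lost with all 18 mice in one fit (adjusted p = 0.0614). At 6 h it was called in 1 of 6 fits, that without the first 6 h mouse (0.74, adjusted p = 0.0264). Its paralog Chac2, which is taken to be constitutive, was lower at 6 h (-0.84, adjusted p = 0.00695) and at 72 h (-0.61, adjusted p = 6.65e-05).

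Xbp1 (chr11:5520659-5525893, plus strand), the IRE1 branch, was called higher at the same times as Atf4. It stood at 12.4, 12.1 and 12.6 FPKM in control, 13.9, 12.1 and 11.3 at 10 min and 11.3, 12.4 and 11.2 at 1 h, a flat baseline. It was at 30.6, 19.4 and 19.6 at 6 h, 27.0, 24.8 and 44.4 in the 24 h mice and 25.3, 27.6 and 28.1 in the 72 h mice. The 9 late mice lay above the 9 others. The change was 0.83 ± 0.17 at 6 h (adjusted p = 0.0129), 1.26 ± 0.21 at 24 h (adjusted p = 0.00695) and 1.07 ± 0.07 at 72 h (adjusted p = 1.37e-06). Without the third 24 h mouse it was 1.01 (adjusted p = 0.000412), and at 6 h the adjusted p rose to 0.0504 without the second control mouse. Plasma cells carry very high Xbp1. The sum of 8 B and plasma cell markers ran from 4.65 to 5.32 FPKM in control and from 22.1 to 26.6 at 72 h, and the 3 that could be tested (Cd79a, Cd79b and Sdc1) were 3 of 3 called higher at 72 h, with a median of 1.48. Cd79b, of the B cell receptor, went from between 0.46 and 0.84 in control to between 3.05 and 3.95, and Sdc1, which other cells share, from between 2.38 and 2.48 to between 14.4 and 20.4. Jchain and Mzb1, of antibody-secreting cells, reached at most 0.31 and 0.26 at 72 h, where Mzb1 in control reached 0.72. The part of these cells in the Xbp1 values was not tested.

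Set against Atf4 in the same mouse, the other genes took different courses, in part depending on the time. A ratio of 2 FPKM values within a mouse does not change when all genes of that mouse are scaled by 1 factor. Quantile normalization is not such a scaling, and the ratios were not computed under it. The ratio of Ddit3 to Atf4 was 0.451, 0.463 and 0.456 in the control mice. It was 0.128, 0.200 and 0.231 at 6 h, 0.274, 0.261 and 0.248 in the 24 h mice and 0.208, 0.177 and 0.181 in the 72 h mice, below all control mice each time. The third 24 h mouse, which was far above the other two for both genes, had a ratio next to theirs. Chac1 to Atf4 was 0.0685, 0.0722 and 0.0460 in control and 0.0238, 0.0199 and 0.0119 at 72 h, also without overlap, and Trib3 to Atf4 went from 0.0503, 0.0578 and 0.0374 to 0.0289, 0.0330 and 0.0288 at 72 h. The Chac1 ratio overlapped control at 6 h (0.0236 to 0.0818), and that of Trib3 did at 24 h (0.024 to 0.057). Atf5 to Atf4, with a mean of 0.991 in control, was below all control mice at 6 h, 24 h and 72 h (means 0.383, 0.586 and 0.714). Asns to Atf4 took the other direction, from 0.0538, 0.0391 and 0.0386 to 0.0909, 0.140 and 0.0952 at 72 h, as did Sesn2, from a mean of 0.00709 to 0.0162. Ppp1r15a to Atf4 was 0.142 ± 0.0153 (SD, n = 3) in control, 0.395 ± 0.0278 at 1 h and 0.307 ± 0.0209 at 6 h, and it was under all control mice at 72 h (0.110 ± 0.00946). Xbp1 to Atf4 was the most even, with 0.246 ± 0.0170 in control, 0.211 ± 0.0246 at 6 h, 0.274 ± 0.0303 at 24 h and 0.307 ± 0.00752 at 72 h. With 3 against 3 mice the two-sided exact permutation test cannot go below p = 0.1 (0.167 after adjustment over the 40 ratio tests). It reached this floor in most of the 40, Ddit3 at 10 min, 6 h, 24 h and 72 h among them, so these are orderings without overlap and not calls. At 10 min, when Atf4 was not higher than control, 4 ratios already lay above all control mice and 1 below. At 72 h 3 lay above and 5 below.

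**Figure D3:**
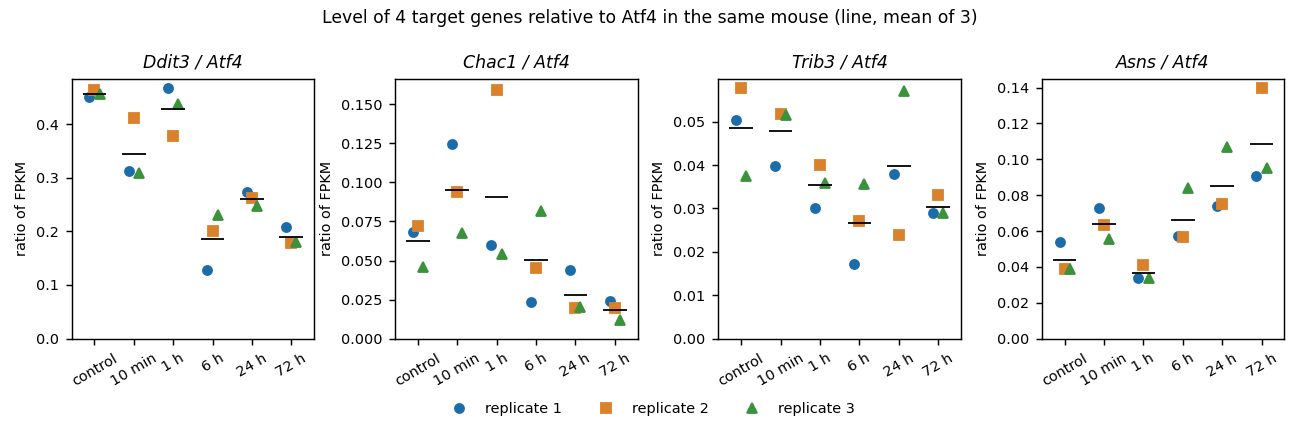
Ratio of the FPKM of Ddit3, Chac1, Trib3 and Asns to that of Atf4 in the same mouse, by group (symbols are replicates, the line is the mean of 3, each axis from 0). Ddit3 per Atf4 falls from 0.456 in control to 0.189 at 72 h while Asns per Atf4 goes from 0.0438 to 0.109.

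Of the steps tested between successive times, that from 1 h to 6 h held the most calls. The step from 10 min to 1 h, over which the mean of Ppp1r15a went from 8.09 to 19.3 FPKM, was not tested. At 6 h against 1 h, 6 of 9 genes were called higher and 0 lower, against 9.32% and 11.2% of all genes (1571 and 1098 genes with median-of-ratios scaling, against 1241 and 1490), with a median of 0.47 beside -0.06. They were Asns (1.54), Atf4 (1.14), Xbp1 (0.91), Ppp1r15a (0.76), Trib3 (0.47) and Sesn2 (0.44). Sesn2 lay under an FPKM of 1 in each 1 h mouse and entered the test through later mice. Its call was lost with no filter (adjusted p = 0.0601), where 3 of 9 were called higher. With any one of the 1 h mice left out, the count was 2 of 9. At 24 h against 6 h, 1 of 9 was called higher (Atf5, 0.67 ± 0.14, adjusted p = 0.03) and 0 lower, against 12.5% and 1.94% (1664 and 258 genes, and 403 and 368 with median-of-ratios scaling), and 3 of 9 had an unadjusted p under 0.05. At 72 h against 24 h, 0 were called higher and 1 lower (Ddit3, -0.80 ± 0.20, adjusted p = 0.0142), against 29.7% and 13.5% (3963 and 1799 genes, and 2775 and 3424 with quantile normalization). The 24 h mice enter both of these, and leaving out the third changed the counts to 0 higher and 1 lower (24 h against 6 h) and 1 higher and 2 lower (72 h against 24 h). These comparisons share mice with those against control and with each other.

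Upstream, the 4 eIF2 kinases went in different directions at 6 h and were all called higher at 72 h. At 6 h, Eif2ak4 (GCN2, the sensor of amino acid lack) was higher by 0.46 (adjusted p = 0.0258) and Eif2ak2 (PKR, the sensor of double-stranded RNA) lower (-0.32, adjusted p = 0.0449), while Eif2ak3 (PERK, in the ER) and Eif2ak1 (HRI, the heme sensor) were at -0.12 each, not called. At 24 h none of the 4 was called by limma, with values from 0.22 to 0.40. Tested directly by limma, 1 of 4 was higher at 24 h than at 6 h (Eif2ak2, 0.66, adjusted p = 0.0265) and 0 lower. Of all genes, 12.5% and 1.94% were. At 72 h 4 of 4 were higher, by 1.40 for Eif2ak2, 0.83 for Eif2ak3, 0.60 for Eif2ak4 and 0.28 for Eif2ak1, with 3 of 4 under median-of-ratios scaling and 2 of 4 under quantile normalization. Of all genes, 53.1% were called higher at 72 h, and 11.6% were called higher and 16.8% lower at 6 h. Kinase activity is set by phosphorylation, which mRNA does not show.

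The bZIP partners of ATF4, with which it pairs on DNA or which share its targets, were in part called earlier than Atf4 itself. At 1 h 3 of 7 were called higher, against 0.669% of all genes. They were Atf3, from 2.31 ± 0.263 to 64.8 ± 18.8 FPKM (4.28, adjusted p = 3.01e-05), Cebpd (1.49, adjusted p = 0.000332) and Cebpb (1.13, adjusted p = 0.0332), the last 2 named after their values were seen. At that time Atf4 was at -0.05 ± 0.09 (adjusted p = 0.857). At 6 h 5 of 7 were higher, and at 24 h and 72 h 7 of 7, against 11.6%, 26.2% and 53.1% of all genes. Cebpa, the myeloid and metabolic factor, was at 3.78 by 72 h (adjusted p = 1.8e-07). Batf3 averaged 0.151 FPKM in control and 0.200 at 1 h. It entered the test through later mice, so that its calls are tied to that entry. At 24 h the count was 4 without the third mouse and with median-of-ratios scaling or quantile normalization, and 3 to 4 without 1 control mouse, and at 6 h it was 3 without any control mouse or the first or the third 6 h mouse. At 72 h macrophage markers were higher in 7 of 7, against 53.1% of all genes, and the part of these cells was not tested.

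ATF4 targets of amino acid supply, 17 genes tested besides Asns, were 0 called at 1 h. At 6 h 7 of 17 were higher and 0 lower, and the other 10 were not called, where 11.6% of all genes were higher. By 24 h this was 10 and 1, against 26.2% of all genes higher, and by 72 h 13 and 2, against 53.1%, with medians of 0.28, 0.72 and 1.11 at the last 3 times. The 6 h count was 4 without the second or the third control mouse. Mthfd2, Slc7a11 and Phgdh averaged 0.404, 0.060 and 0.096 FPKM in control. They stayed low up to 1 h and entered the test through later mice, so that any call of theirs is tied to that entry. Counts without them were not made. Slc7a5, the large neutral amino acid carrier, went from 3.22 ± 0.428 FPKM in control to 16.7 ± 4.06 at 6 h and 24.1 ± 12.3 at 24 h (2.05 and 2.47, adjusted p = 0.0006 and 0.0038). Pycr1, the last step of proline synthesis, was not called at 6 h (0.07) and was higher at 24 h (0.87, adjusted p = 0.00639) and 72 h (2.55, adjusted p = 3.73e-07). Gpt2, the mitochondrial alanine aminotransferase, was lower at 24 h (-1.04, adjusted p = 0.0123) and 72 h (-1.30, adjusted p = 7.78e-06), and Cth, of cysteine synthesis, at 72 h (-0.87, adjusted p = 0.000682).

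ATF4 and CHOP stress targets, 14 genes tested, were mixed. At 1 h 2 were higher, against 0.669% of all genes. They were Cdkn1a (1.73, adjusted p = 0.0401) and Ddit4 (1.64, adjusted p = 0.0036), the latter named after its values were seen. At 6 h 7 were higher and 1 lower, against 11.6% and 16.8% of all genes. By 24 h it was 5 against 2 (26.2% and 11.4% of all genes), and by 72 h 7 against 4 (53.1% and 24.2%). The 72 h shares of this list are thus near those of all genes. Without the third 24 h mouse the 24 h count was 8 and 2, and without any one control mouse 3 were higher. Cdkn1a, the cell cycle inhibitor p21, which p53 also drives, went from 10.1 ± 1.21 FPKM to 174 ± 54.1 at 6 h (3.93, adjusted p = 0.00015). Gdf15, a secreted stress hormone, went from 0.400 ± 0.0686 to 8.89 ± 0.568 at 72 h (2.82, adjusted p = 3.11e-08). Its mean at 1 h was 0.585 FPKM, and like Sesn2 it entered the test through later mice. Its call is thus tied to its entry, and it is part of the 72 h count. Herpud1, an ER degradation factor, and Vldlr, a lipoprotein receptor, were the lowest at 72 h (-1.64 and -1.50, adjusted p = 1.24e-07 and 5.89e-07).

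The list of the XBP1 and ATF6 arm in the ER holds targets together with sensors and processing genes (Ern1, Atf6, Atf6b, Mbtps1 and Mbtps2). Counts for the targets alone were not made. The genes of this list were for the most part called later than Xbp1. Of 28 genes, 0 were called at 1 h and 2 were higher at 6 h, when Xbp1 itself was at 0.83, and the median was 0.00. At 24 h 23 were higher and 0 lower with a median of 0.80 (26.2% of all genes were higher), and at 72 h 26 were higher and 2 lower with a median of 0.98 (53.1%). The counts were 0 higher at 6 h without any control mouse or the first or the third 6 h mouse, 22 higher at 24 h without the third mouse, 15 at 24 h without the first or second control mouse, 20 and 19 at 24 h and 23 and 20 at 72 h with median-of-ratios scaling and quantile normalization. Sdf2l1, an ER chaperone partner, went from 2.55 ± 0.356 FPKM in control to 2.97 ± 0.709 at 6 h, then 14.8 ± 2.77 and 20.2 ± 2.40 at 24 h and 72 h (0.15, 2.14 and 2.58, adjusted p = 0.489, 0.000992 and 1.61e-07). Edem1, which routes misfolded glycoproteins to degradation, was at 0.28 at 6 h, 1.31 at 24 h and 2.44 at 72 h (adjusted p = 0.231, 0.00732 and 1.95e-07). Hspa5 (BiP), the main ER chaperone, named after its values were seen, was at 0.13, 1.06 and 0.74 (adjusted p = 0.441, 0.0113 and 0.000193). The 2 lower genes at 72 h were Dnajb9, a BiP co-chaperone (-0.30), and Atf6 itself (-0.28). Derl3, at 0.069 FPKM in control, entered the test only through later mice. Of 7 fibroblast markers, of cells that secrete heavily, 4 were higher and 1 lower at 24 h, against 26.2% and 11.4% of all genes. At 72 h 7 of 7 were higher, against 53.1%. The part of these cells in the values of this list was not tested. Tested directly, 19 of the 28 were higher at 24 h than at 6 h and 0 lower, with a median of 0.82, against 12.5% of all genes, while Xbp1 was at 0.43 ± 0.26 (adjusted p = 0.259). That count was 10 with median-of-ratios scaling, 12 with quantile normalization, 15 without the third 24 h mouse, 4 without the second 24 h mouse, 8 without the first 6 h mouse, 0 without the second or the third 6 h mouse and 0 with the replicate number as a block.

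The remaining lists are given beside the shares of all genes. At 6 h 11.6% of all genes were called higher and 16.8% lower. At 24 h it was 26.2% and 11.4%, and at 72 h 53.1% and 24.2%. Of 8 genes for eIF2 and its exchange factor eIF2B, 1 was higher and 1 lower at 6 h. This became 4 against 0 by 24 h and 4 against 2 by 72 h, with 1 against 3 at 72 h under median-of-ratios scaling and 3 against 4 under quantile normalization, led by Eif2s1 (0.64 at 24 h and at 72 h), with Eif2b4 lowest (-0.61 at 72 h). Of 6 genes that dephosphorylate eIF2 or restrain its kinases, 2 were higher and 1 lower at 6 h, with 3 against 0 by 24 h and 4 against 1 by 72 h, led by Dnajc3 (0.89 at 72 h). Of 7 genes of the mitochondrial stress arm, 0 were called at any time before 72 h, when 6 were lower, with Hspa9 at -1.06 and Clpp at -0.99, and 1 (Yme1l1, 0.34) was higher. With either of these scalings 2 were lower at 24 h and 0 higher at 72 h. At 72 h 8 of 8 cardiomyocyte markers were also lower, and the part of these cells in the mitochondrial values was not tested. Of 10 relatives of the members, 6 were higher and 4 lower at 72 h. For the eIF2 and eIF2B list and for the relatives, the share called higher at 72 h is thus near that of all genes. Ddit4l among them, at 0.603 FPKM in control, entered the test only through later mice.

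**Figure D4:**
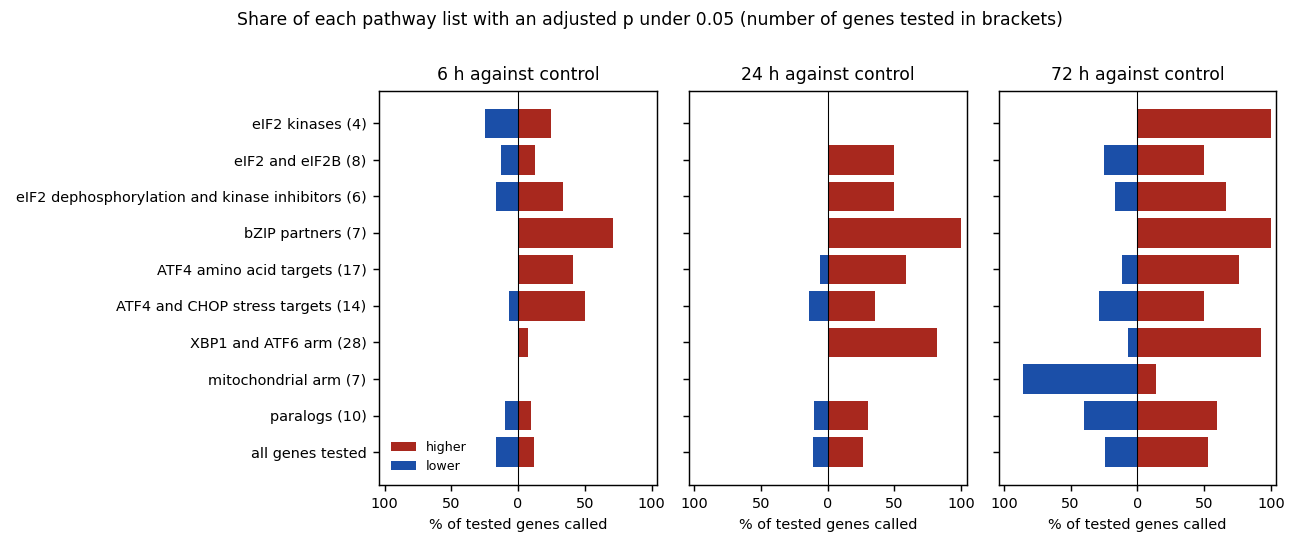
Percent of the tested genes of each pathway list called higher (red, to the right) or lower (blue, to the left) than control at 6 h, 24 h and 72 h, beside all genes tested. Between 6 h and 24 h the XBP1 and ATF6 arm goes from 2 to 23 of 28 genes higher, while the mitochondrial arm stands at 0 (2 lower at 24 h with the other scalings) and reaches 6 of 7 lower at 72 h.

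The genes with the most similar pattern over the 18 mice, by the root mean square difference of centred log2(FPKM + 1) among 11053 genes, are a description of shape. For Atf4 they were Rassf1 (0.125, where Atf4 itself varied by 0.595 about its mean) and Zfp593 (0.133). For Xbp1 they were Heatr1 (0.128) and Chst1 (0.129), for Sesn2 Sav1 and Ppp1r15b (0.109 each), and for Asns Met (0.211) and Rhoc (0.255). The nearest to Ppp1r15a were Adamts1 (0.269) and Csrnp1 (0.295), which also peaked at 6 h, at 109 and 25.9 FPKM. Atf5 was nearest to Rrp36 and Smg6 (0.106 and 0.107), Ddit3 to Adrm1 and Mrps18b (0.173 and 0.206), Trib3 to Hgh1 and Grina (0.221 and 0.240), and Chac1 to Fbxo32 and Tgfbr3 (0.283 and 0.311). Fbxo32, a muscle ubiquitin ligase, went from 39.8 FPKM in control to 17.9 at 72 h.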

How the data were processed

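PolyA RNA of 18 mouse hearts (6 groups of 3) was sequenced. The authors trimmed reads with cutadapt 1.18 (minimum length 50), mapped them to mm10 with HISAT2 2.1.0 and quantified genes with StringTie 1.3.4d, and deposited FPKM by gene symbol, 1 column a mouse. The annotation and the strand setting are not given in the sources used here. Groups came from sample titles. All 18 columns were used, and 4 of them with a misspelled time label were matched by name.

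FPKM were used without further scaling. Genes with at least 1 FPKM in at least 1 mouse (13333) were tested on log2(FPKM + 1) with limma 3.58.1 in R 4.3.3 (lmFit, eBayes with a variance trend), each comparison on its own 6 mice, two-sided, with Benjamini-Hochberg adjustment over the 13297 to 13330 genes that varied in it. Nothing states whether replicates were processed apart, so p-values measure the spread between these mice. In simulated data with the spread of the control mice, 199 of 200 genes changed by 2 on the log2 scale were called, with 11 of 13133 unchanged genes. The changed genes were drawn from the more abundant ones, at levels above those of Trib3, Chac1, Asns and Sesn2 in control. The simulation does not tell how often scarcer genes, smaller changes or groups with a wider spread would be called. Counts were not used here, so no counting error is given, and the number of mice limits precision.

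The 9 genes, the gene lists and the tests were chosen with earlier results of these data known. Named from each list were the 2 largest and 2 smallest called changes at any time, all eIF2 kinases, the relatives of members, and for each member the 2 genes of most similar pattern. Positions are those of GENCODE M21, and promoter sequences those of RefSeq GRCm38.p6. Alternatives were quantile normalization, median-of-ratios scaling or equal sums of FPKM, another pseudocount (0.1), no filter or one on mean FPKM (which leaves out Sesn2), no variance trend, a joint fit of all 18 mice, a replicate block, and each mouse left out in turn. Their use on the lists was added after seeing the data. Other data of the study were not analysed here.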

Additional observations from a re-analysis of the deposited data

Results flagged for a closer look

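Effects against the same control that differed between successive times, by a direct test between those times, were singled out. Between 1 h and 6 h, 6 members differed by limma's adjusted p: Atf4 by 1.14, Asns by 1.54, Xbp1 by 0.91, Ppp1r15a by 0.76, Trib3 by 0.47 and Sesn2 by 0.44, with adjusted p from 0.000925 to 0.0476. The 6 h mice were higher than each 1 h mouse for each of these 6 genes. Sesn2 entered the test only through later mice, and its difference was not called with no filter (adjusted p = 0.0601). Between 6 h and 24 h, Atf5 differed by 0.67, from a level below control to one above it. Between 24 h and 72 h, Ddit3 differed by -0.80, with its 72 h mice below each 24 h mouse.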

How the results depend on the processing

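Of the values of single genes under other settings, 607 stayed on their side of the threshold, called or not, 22 lost and 9 gained a call, and 2 reversed, both at 72 h with quantile normalization: Trib3 to -0.46 and Ppp1r15a to -0.040. With 1 mouse left out, 385 stayed on their side of the threshold, called or not, 40 lost a call and 7 gained one. The cause of these changes was not tested. The 1 gene lower at 6 h (Atf5) went to 0 with median-of-ratios scaling, no variance trend and the replicate block. The 2 lower at 72 h went to 1 with all 18 mice in one fit, and the 6 higher at 6 h against 1 h went to 3 with no filter. At 24 h against 6 h, the 1 higher went to 0 with median-of-ratios scaling, quantile normalization and the replicate block, and to 2 with all 18 mice in one fit, which also gave 1 lower. At 72 h against 24 h, the 1 lower went to 3 with median-of-ratios scaling and quantile normalization, and to 2 with all 18 mice in one fit and the replicate block.

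With 1 mouse left out, the counts ranged from 3 to 6 higher and 0 to 1 lower at 6 h, 2 to 6 higher at 24 h, 2 to 4 higher at 6 h against 1 h, 0 to 1 higher and 0 to 1 lower at 24 h against 6 h, and 0 to 1 higher and 0 to 2 lower at 72 h against 24 h. They were constant at 10 min, 1 h and 72 h. Single mice that moved a count by over 1.5 times were, at 6 h, the second control mouse (3 higher) and, each with 0 lower, the 3 control mice and 6 h mice 2 and 3, each control mouse at 24 h (2, 2 and 3 higher for the first to the third), each 1 h mouse at 6 h against 1 h (2 each), each 6 h mouse and 24 h mice 2 and 3 at 24 h against 6 h (0 higher each, with 1 lower when 24 h mouse 3 is left out), and, at 72 h against 24 h, each 24 h mouse (2 lower each, with 1 higher when mouse 3 is left out) and the second 72 h mouse (0 lower). Leaving out a control mouse leaves 2 against 3, with fewer degrees of freedom.

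Replicate numbers are shared by the groups, but they do not mark pairs: the correlation of same-numbered deviations was over 0.1 in 0 of 3 pairs in each comparison with control (-0.26 to 0.08) and in at most 1 of 3 between times. With the replicate block, called genes at 24 h against 6 h fell from 1664 higher and 258 lower to 1 and 0. Sesn2 and Ppp1r15a at 6 h against 1 h lost their call with it (adjusted p = 0.0542 and 0.0732).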
